A study of Rattus norvegicus with 30 samples.

Results

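The 10 genes described here take glucose into the heart muscle cell and break it down to pyruvate and lactate: the glucose transporter genes Slc2a1 and Slc2a4, the hexokinase genes Hk1 and Hk2, the regulatory enzyme gene Pfkfb3, and Aldoa, Gapdh, Pgam2, Ldha and Ldhb, which encode enzymes of later steps. Members were found by gene symbol in the array's annotation. Of the 10 genes, 9 had a probe set of their own among the 4737 genes the array names by 1 symbol. A probe set is the group of short oligonucleotides that reads 1 transcript. These 9 genes had 23 probe sets, of which 9 were the maker's control probe sets (6 for Gapdh and 3 for hexokinase, annotated to Hk1). The other 14 belonged to 8 genes, and 13 of them, again from 8 genes, passed the filter on low signal and were tested. Gapdh was measured on control probe sets only, and Ldha only on a probe set whose annotation lists several genes, so no value is given for Ldha.

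Total RNA of rat left ventricles was hybridised to 30 arrays of Affymetrix, with 6 protocols and 5 biological replicates in each. Hearts were controls (CTL) or underwent ischemia (ISCH), ischemic preconditioning (IPC) or anesthetic preconditioning (APC), and 2 further groups received the trigger of IPC (IPC_TRI) or of APC (APC_TRI). A preconditioned heart tolerates a long ischemia better after a mild stimulus, and the trigger is that stimulus by itself. The keywords of the labels name a comparison of ischemia and reperfusion with pharmacological and ischemic preconditioning, which is the question the groups address. The labels give no strain, age, anesthetic agent, dose or duration, and they do not say whether an array holds RNA of 1 heart.

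Glucose enters the cardiomyocyte through SLC2A1, the basal transporter, and SLC2A4, the transporter that insulin and ischemia bring to the cell surface. Hexokinase traps it as glucose 6-phosphate, and phosphofructokinase commits it to glycolysis. PFKFB3 makes fructose 2,6-bisphosphate, the strongest activator of phosphofructokinase, and its gene is a known target of hypoxia and of inflammatory signals. Glycolysis is the heart's oxygen-independent source of ATP during ischemia, with lactate as its end product. In this tissue LDHB, the subunit that favours the use of lactate, dominates over LDHA.

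Promoter sequences of 9 of the 10 members were matched in RefSeq (rat build GRCr8), as 12 windows that run from 250 bases before a transcription start to 50 after it; Slc2a4 had none. The letters ACGTG, the core of the hypoxia response element, were searched on both strands. They occurred in 6 of the 12 windows, from 6 genes (Slc2a1, Hk1, Pfkfb3, Aldoa, Gapdh and Ldha), and in 19.3% of all 33469 windows. The 250 bases before the start are given for Pfkfb3, the member that changed most, and Slc2a1, which did not pass against CTL in any group, each 5′ to 3′ on the gene's strand with the ACGTG matches in capitals. The Pfkfb3 window lies at chr17:71944683-71944932 on the plus strand and the Slc2a1 window at chr5:138002272-138002521 on the plus strand.
Pfkfb3: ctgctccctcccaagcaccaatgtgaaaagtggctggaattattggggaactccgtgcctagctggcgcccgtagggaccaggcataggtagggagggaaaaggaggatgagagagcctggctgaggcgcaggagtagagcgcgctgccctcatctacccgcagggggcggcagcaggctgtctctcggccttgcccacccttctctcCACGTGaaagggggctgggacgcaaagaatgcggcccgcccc
Slc2a1: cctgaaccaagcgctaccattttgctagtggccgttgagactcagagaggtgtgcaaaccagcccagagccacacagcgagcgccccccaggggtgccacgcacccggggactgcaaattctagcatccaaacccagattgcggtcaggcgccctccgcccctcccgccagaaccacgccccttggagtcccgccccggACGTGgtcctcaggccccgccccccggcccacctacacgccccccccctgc
In Pfkfb3 a match on each strand overlaps in the same 6 letters, and the first begins at -42 from the start; in Slc2a1 the 1 match begins at -51. A match describes the letters of the window and does not show that a factor binds there.

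Signals below are the deposited values in arbitrary units. Changes are log2 differences of group means ± standard error (SE) after quantile normalisation of log2(signal + 16), with 5 arrays per group, and adjusted p-values come from limma with Benjamini-Hochberg adjustment over all 5244 probe sets tested. A probe set passed at an adjusted p under 0.05. Across the 6 groups 7 of the 13 member probe sets passed the F test, against 31.6% of all probe sets. They were both probe sets of Pfkfb3, both of Slc2a4, and those of Aldoa and Pgam2, with 1 of the 2 for Ldhb.

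The arrays were not equally alike. The mean correlation of an array with the others of its group ran from 0.952 to 0.965 in CTL but from 0.853 to 0.901 in IPC_TRI, where replicate 5 was lowest, and ISCH replicate 1 stood at 0.905. The log2 signal of bacterial transcripts spiked into the samples averaged 12.0 in ISCH against 10.8 in CTL. The 3′ to 5′ signal ratio of beta-actin, a measure of RNA and labelling quality, averaged 0.748 in IPC_TRI and 0.792 in APC_TRI and between 1.04 and 1.28 in the other groups. Of 10 cardiomyocyte markers 9 were on the array, and 0 of them were at a signal of 0 in any group. The summed signal of 3 atrial markers was at most 4029 in the other 5 groups and reached 26143 in APC_TRI, where its median was 2342.

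Pfkfb3 changed most among the members. It fell in ISCH, IPC and APC, to between 0.163 and 0.237 of the CTL level on its brighter probe set, D87240_at. The CTL signals were 1089, 957, 830.0, 1230.2 and 727, and the ISCH signals were 101, 103, 136, 203 and 192. The IPC arrays read 156, 276, 186, 161 and 162, and the APC arrays 264, 200.0, 245, 135 and 156. All 15 of these arrays lay below all 5 CTL arrays, and they overlapped with one another. In ISCH, IPC and APC 5.59%, 4.12% and 4.23% of all probe sets lay below CTL without overlap. The change against CTL was -2.61 ± 0.29 in ISCH (adjusted p = 1.6e-07), -2.16 ± 0.29 in IPC (adjusted p = 5.6e-06) and -2.08 ± 0.29 in APC (adjusted p = 7.3e-06). These 3 comparisons share the CTL arrays.

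The second Pfkfb3 probe set, AB006710_s_at, gave the same picture at a lower signal. CTL arrays read 1050.1, 1167, 586, 515 and 756, and ISCH arrays 36.9, 99.9, 128, 92.8 and 25.0. IPC arrays stood at 21.9, 316, 109.8, 195 and 96.1, and APC arrays at 208, 128, 78.4, 19.9 and 149, so that again none of the 15 reached the lowest CTL array. The changes were -3.24 ± 0.53 (adjusted p = 6.4e-05), -2.47 ± 0.53 (adjusted p = 0.0026) and -2.68 ± 0.53 (adjusted p = 9.3e-04). The mean ISCH signal was 76.4, below the array medians of 114.6 to 189.2. At such signals the size of a change depends on the 16 added before the logarithm. Both probe sets passed in each of the 3 comparisons under all 23 alternatives run for each.

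**Figure D1:**
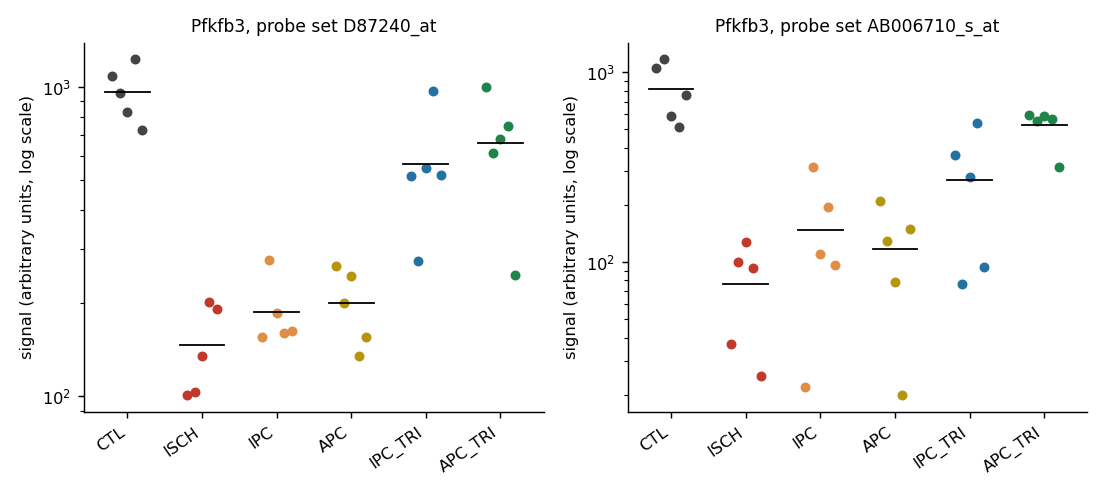
Deposited signal of the 2 Pfkfb3 probe sets on each of the 30 arrays, on a log axis in arbitrary units; points are arrays and horizontal lines are group means of 5 arrays. On D87240_at the 15 ISCH, IPC and APC arrays lie between 101 and 276 and the CTL arrays between 727 and 1230.2, with the trigger groups between them in the mean.

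In the trigger groups Pfkfb3 was intermediate. On D87240_at the IPC_TRI arrays read 516, 274, 548, 975 and 519.8, and the APC_TRI arrays 1003, 612, 681, 751 and 247. The mean levels ran in the order CTL (967 ± 200.3, SD, n = 5), APC_TRI (659 ± 274), IPC_TRI (566 ± 254), APC (200.0 ± 55.3), IPC (188 ± 50.2) and ISCH (147 ± 48.2). Among neighbours in this order, CTL and APC_TRI did not differ past the threshold (-0.63 ± 0.29, adjusted p = 0.17), nor did the trigger groups from each other (-0.19 ± 0.29, adjusted p = 0.82), nor IPC from APC (-0.08 ± 0.29, adjusted p = 1) or from ISCH (0.46 ± 0.29, adjusted p = 0.59). IPC_TRI against CTL gave -0.82 ± 0.29 (adjusted p = 0.052) on this probe set, and it passed in 7 of 23 alternatives. On AB006710_s_at it passed at -1.89 ± 0.53 (adjusted p = 0.014), a call that ended without IPC_TRI replicate 5 (-1.54, adjusted p = 0.056), with array weights (-1.33, adjusted p = 0.18) and in a fit of only these groups (-1.86, adjusted p = 0.053).

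Each full protocol lay below its trigger. APC minus APC_TRI was -1.45 ± 0.29 (adjusted p = 6.8e-04) and -2.11 ± 0.53 (adjusted p = 0.0048) on the 2 probe sets. IPC minus IPC_TRI was -1.34 ± 0.29 (adjusted p = 0.0015) on D87240_at and -0.58 ± 0.53 (adjusted p = 0.46) on AB006710_s_at. With the beta-actin ratio as a covariate the IPC call ended, at an adjusted p of 0.13. The step from IPC_TRI to IPC was smaller than the step from CTL to ISCH, by 1.28 ± 0.41 (adjusted p = 0.038) and 2.66 ± 0.74 (adjusted p = 0.018). The first of these calls held in 16 of 33 alternatives and in 8 of the 20 fits that left out 1 array, and the second in 30 of 33; with the spike signal as a covariate they were 0.61 and 2.01 and neither passed. For the step from APC_TRI to APC the same differences were 1.16 ± 0.41 (adjusted p = 0.076) and 1.13 ± 0.74 (adjusted p = 0.35).

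Pfkfb3 is also expressed in endothelial and immune cells. In ventricle RNA, fewer cells of a type and less RNA per cell cannot be told apart. Of 9 endothelial markers 7 were on the array, none at 0, and their summed signal ranged from 3823 to 4769 in CTL, 2660 to 4297 in ISCH, 2572 to 4105 in IPC and 2483 to 3437 in APC. In ISCH minus CTL 1 of the 7 rose and 2 fell. Of 7 myeloid markers 5 were on the array, none at 0, with summed signals of 1125 to 1669.7 in CTL, 1075 to 1737 in ISCH, 877 to 1367 in IPC and 809 to 1361 in APC. Of the 3 myeloid markers tested, Cd14, a monocyte receptor for bacterial lipopolysaccharide, fell in the same 3 comparisons as Pfkfb3, by 0.88 in ISCH, 1.00 in IPC and 0.80 in APC on the log2 scale. The median change of these 3 markers was above 0 in each comparison, at 0.14, 0.34 and 0.11. Among the endothelial markers Selp, the adhesion molecule P-selectin, fell by 1.94, 1.13 and 1.40, and Sele, E-selectin, fell by 2.22 in ISCH and 1.61 in APC. Thbd, thrombomodulin, rose by 0.66 in ISCH. The median change of the 7 endothelial markers was 0.64 in ISCH, 0.04 in IPC and 0.10 in APC. The part of these cells in the Pfkfb3 values was not tested.

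Over the 30 arrays the genes most like Pfkfb3 were Cxcl10, a chemokine (Pearson r = 0.926), Rsad2, an antiviral protein that interferons induce (r = 0.916), and Mx2, an interferon-induced GTPase (r = 0.898). With the group means removed the correlations were 0.540, 0.437 and 0.450. They are descriptions over arrays that share groups, scaling and RNA quality. Cxcl10 had a mean signal of 12448 ± 2201 in CTL, 461 ± 86.4 in ISCH and 5715 ± 2453 in APC_TRI (SD, n = 5), so it too stood between in the trigger group.

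Counted over all members, ISCH minus CTL called 3 of 13 probe sets, all lower, where 8.77% of all probe sets passed in either direction and 4.82% were lower. The median change of the 8 member genes, each at its brightest probe set, was -0.28, with 6 of the 8 below 0, beside a median of -0.01 over all genes. IPC and APC minus CTL each called 2 of 13 lower, both of Pfkfb3, with 3.89% and 3.66% of all probe sets passing and 2.02% and 2.29% lower. IPC_TRI minus CTL called 1 of 13, lower, against 16.6% of all and 10.1% lower. In APC_TRI minus CTL limma called 0 of 13 (2 at an unadjusted p under 0.05), against 8.64%. Centring each array on its median in place of quantile normalisation gave a median over all tested probe sets of -0.19 in place of -0.05 in IPC_TRI minus CTL, and of 0.19 in place of 0.05 in IPC minus IPC_TRI.

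**Figure D2:**
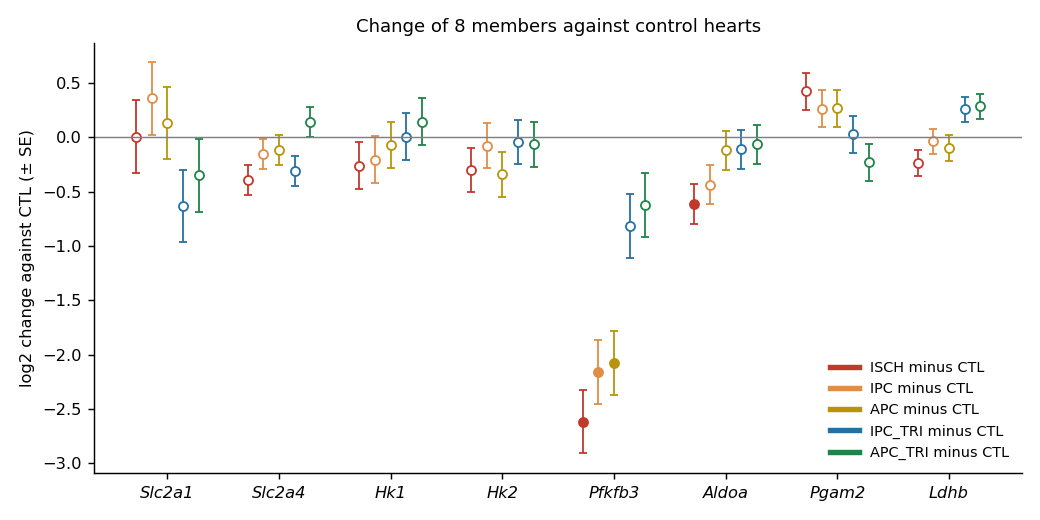
Log2 change against CTL (± SE) of the 8 tested member genes at their brightest probe set, in the 5 other groups; filled points passed at an adjusted p under 0.05 and open points did not. Pfkfb3 in ISCH, IPC and APC and Aldoa in ISCH are the filled points.

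Neither preconditioning protocol differed from unprotected ischemia in any member past the threshold. In IPC minus ISCH limma called 0 of 13 probe sets (0 at an unadjusted p under 0.05), and 0.172% of all probe sets passed. In APC minus ISCH it called 0 of 13 (1 unadjusted, Aldoa at 0.49 ± 0.18), and 0.267% of all passed; array weights added 1 call. The gene medians were 0.21 and 0.17. IPC and APC did not differ from each other in any of the 13 (1 unadjusted, 0 of all 5244 called), and IPC_TRI minus APC_TRI called 0 of 13 (3 unadjusted) against 0.439% of all. A p that misses the threshold does not show that the groups are alike.

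Of the transporters, neither passed against CTL in any group. In ISCH the 2 probe sets of Slc2a4 went different ways. D28561_s_at, the brighter, read 3791, 3065, 3015, 3303 and 3733 in CTL and 2339, 3078, 2488, 2428 and 2245 in ISCH, where 4 of the 5 ISCH arrays were below all CTL arrays. The change was -0.40 ± 0.14 (adjusted p = 0.069), and it passed without ISCH replicate 2. On rc_AA799760_s_at the CTL arrays read 374, 406, 236, 523 and 353 and the ISCH arrays 503, 479, 596, 402 and 573, a change of 0.48 ± 0.23 (adjusted p = 0.22). The median ratio of the first probe set to the second was therefore 10.1 in CTL and 4.65 in ISCH. In IPC_TRI both were lower than in CTL, by -0.31 ± 0.14 (adjusted p = 0.12) and -0.40 ± 0.23 (adjusted p = 0.23). On D28561_s_at the IPC_TRI arrays (2105 to 2810) lay below all CTL arrays, as did 5.23% of all probe sets. With median centring that change passed, at -0.60 (adjusted p = 0.029).

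In the trigger groups the second Slc2a4 probe set was lower than in the full protocol. IPC_TRI arrays read 189, 437, 352, 305 and 238 and IPC arrays 470.2, 482, 419, 642 and 444, with an overlap of 1 IPC_TRI array. IPC minus IPC_TRI was 0.82 ± 0.23 (adjusted p = 0.0099), and it ended at 0.37 with the beta-actin ratio as a covariate (adjusted p = 0.51). D28561_s_at gave 0.15 ± 0.14 (adjusted p = 0.45) in that comparison, and it passed at 0.52 with median centring (adjusted p = 0.047). That step exceeded ISCH minus CTL by 0.55 ± 0.20 (adjusted p = 0.056). The difference passed with 60% of probe sets left out (adjusted p = 0.048), with the values as deposited (0.69, adjusted p = 0.026) and with median centring (1.04, adjusted p = 0.0083). In APC minus APC_TRI neither passed (-0.26 ± 0.14 and 0.45 ± 0.23).

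Slc2a1, the basal transporter, was less bright than Slc2a4. Their brightest probe sets stood at percentiles 71.1 and 94.4 of the mean signal over all probe sets. On S68135_s_at the CTL arrays read 251, 462, 331, 603 and 235 and the ISCH arrays 205, 403, 636, 334 and 333, a change of 0.01 ± 0.33 (adjusted p = 0.99). IPC_TRI arrays stood at 303, 236, 535, 231 and 96.0, and IPC arrays at 393, 396, 482, 519.6 and 469, so 4 IPC_TRI arrays lay below all IPC arrays. IPC minus IPC_TRI passed at 0.99 ± 0.33 (adjusted p = 0.030). The call ended without IPC_TRI replicate 5, at 0.59 (adjusted p = 0.15), without IPC replicate 3 or 4, and with the beta-actin ratio as a covariate, at 0.42 (adjusted p = 0.64). Its other probe set, M13979_at, was under the filter, with signals from 24.2 to 181 outside the IPC_TRI group and from 55.1 to 313 in it. Its mean signal was 191.8 in IPC_TRI and 81.8 in IPC, opposite in direction to S68135_s_at, and it was not tested.

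The hexokinases did not pass in any comparison on their own probe sets. Hk1, the form that most cells express, read 2053, 1658, 1984, 2141 and 1986 in CTL and 1389.8, 1571, 1449.6, 1956 and 1558 in ISCH on rc_AI012593_at, a change of -0.26 ± 0.21 (adjusted p = 0.54). The U27319exon_at probe set gave -0.19 ± 0.25 (adjusted p = 0.75). Hk2, the insulin-responsive form of muscle, had -0.30 ± 0.21 (adjusted p = 0.44) on M68971_at and -0.15 ± 0.40 (adjusted p = 0.89) on D26393exon_s_at, where ISCH replicate 1 read 64.2 and the other ISCH arrays 383 to 707. In IPC_TRI Hk1 ranged from 798 to 2975 on rc_AI012593_at.

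The array's hexokinase control probe sets were also lower in ISCH than in CTL, and whether they fell more than these was not tested. On the 5′ control probe set the ISCH arrays lay between 271 and 418 and the CTL arrays between 472 and 639.8. On the 3′ control they lay between 417 and 616 against 690.5 and 803, with no overlap in either. Of the probe sets that are not controls and were tested, 5.59% lay below CTL in this way. Added to the table, of which 5249 probe sets were then tested, the middle control probe set passed in ISCH minus CTL at -0.95 ± 0.29 (adjusted p = 0.039). The 5′ and 3′ control probe sets did not, at -0.87 ± 0.31 (adjusted p = 0.080) and -0.59 ± 0.24 (adjusted p = 0.14). Their annotation gives Hk1, and which hexokinase transcript they read beyond that symbol was not tested.

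Aldoa, the muscle aldolase that splits fructose 1,6-bisphosphate, fell in ISCH. Its CTL signals were 13206, 12765, 15958, 13404 and 13907, and its ISCH signals were 11380, 12357, 8011, 12358 and 9597. All 5 ISCH arrays were below all 5 CTL arrays, as held for 5.59% of all probe sets. The change was -0.61 ± 0.18 (adjusted p = 0.027), a ratio of 0.653. IPC gave -0.44 ± 0.18 (adjusted p = 0.28) and APC -0.12 ± 0.18 (adjusted p = 0.95), the latter 0.02 with the values as deposited. The call held in 14 of 23 alternatives. It ended with the values as deposited (-0.38, adjusted p = 0.19), with median centring (-0.48, adjusted p = 0.17), with either quality covariate, and without CTL replicate 1, 3 or 4 (-0.61, -0.57 and -0.61) or ISCH replicate 3 or 5 (-0.52 and -0.60).

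Other cell types moved in the same comparison. All 7 fibroblast markers were on the array, none at 0, and their summed signal was 22652 to 29083 in CTL and 36158 to 70011 in ISCH, with 5 of the 7 higher. The cardiomyocyte markers summed to 189935 to 313702 in CTL and 256260 to 465034 in ISCH on the deposited scale, while 3 of the 9 passed as lower after normalisation. The part of these shifts in the Aldoa value was not tested. Over the 30 arrays Aldoa was most like Casq2, the calcium-binding protein of the sarcoplasmic reticulum (Pearson r = 0.839), Arf1 (r = 0.817) and its fellow member Hk1 (r = 0.805, and 0.822 with group means removed).

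Pgam2, the muscle phosphoglycerate mutase, stood higher in ISCH and lower in APC_TRI. CTL arrays read 1128, 1204, 1356, 1047 and 1096, ISCH arrays 1463, 1481, 1781, 1291 and 1444, and APC_TRI arrays 788, 1004, 989, 1108 and 936. The groups overlapped, and neither ISCH (0.42 ± 0.17, adjusted p = 0.13) nor APC_TRI (-0.23 ± 0.17, adjusted p = 0.41) passed against CTL. The APC arrays, at 1425, 1102, 1775, 1326 and 1315, overlapped with APC_TRI through a single array. APC minus APC_TRI passed at 0.50 ± 0.17 (adjusted p = 0.042) and held in 12 of 23 alternatives. It ended in 8 of the 10 fits without 1 array, that is without any but APC replicate 2 or APC_TRI replicate 4 (lowest 0.41 without APC replicate 3), and with the replicate number as a block (adjusted p = 0.055).

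**Figure D3:**
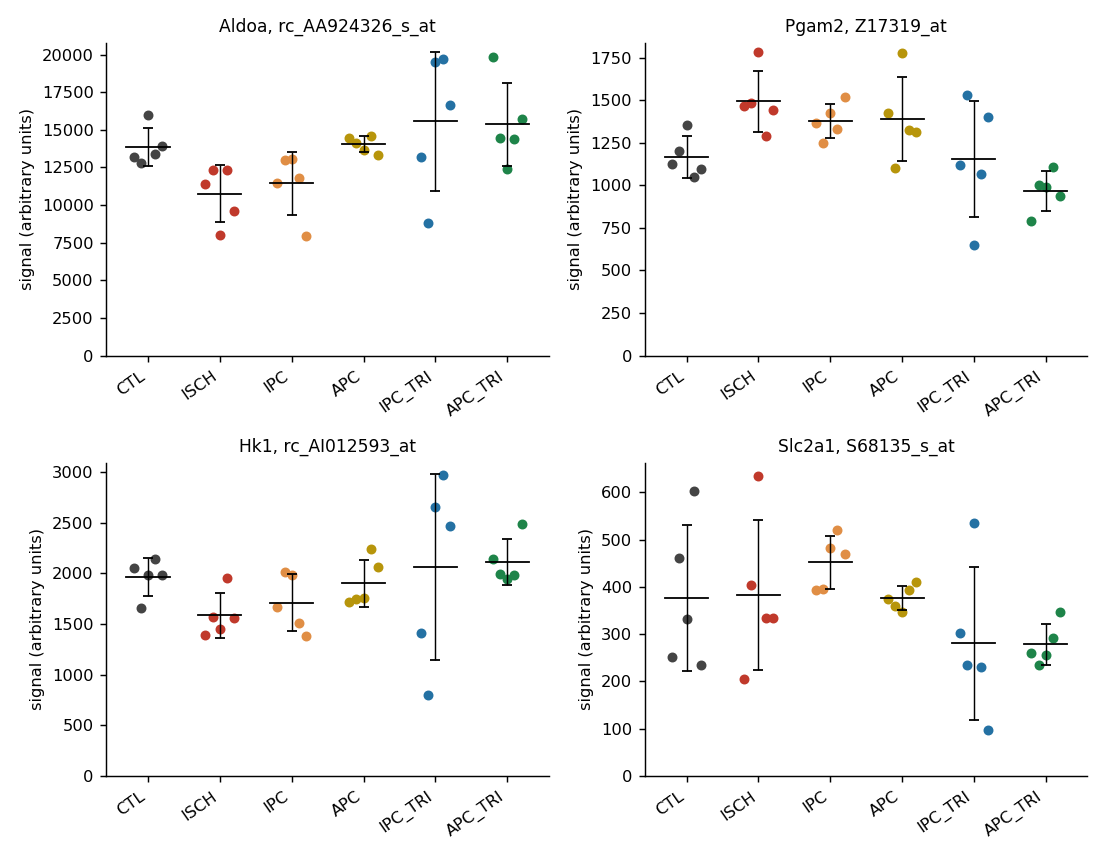
Deposited signal of Aldoa, Pgam2, Hk1 and Slc2a1 on each array in arbitrary units; points are arrays, and lines with bars are group means ± SD of 5 arrays. Aldoa shows no overlap between the ISCH arrays (8011 to 12358) and the CTL arrays (12765 to 15958). In ISCH 5.59% of all probe sets lay below CTL in this way.

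Ldhb, the heart subunit of lactate dehydrogenase, was among the brightest genes, and its 2 probe sets differed. On U07181_at the trigger groups were high: IPC_TRI arrays read 41086, 48418, 38922, 38132 and 38989, and APC_TRI arrays 38614, 37707, 30955, 41329.7 and 38648. CTL arrays read 22233, 31412, 34321, 20965 and 24976, and the ISCH, IPC and APC arrays ranged from 19048 to 31889. On U07181_g_at the trigger arrays (17908 to 30648) overlapped with the others (11174 to 25517). The ratio of the first to the second was 1.58 to 2.07 on the 10 trigger arrays and 0.911 to 1.73 on the 20 others.

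After quantile normalisation the Ldhb difference against CTL on U07181_at was 0.26 ± 0.12 in IPC_TRI (adjusted p = 0.13) and 0.28 ± 0.12 in APC_TRI (adjusted p = 0.12). With the values as deposited the differences were 0.64 and 0.50 and both passed. APC minus APC_TRI was -0.38 ± 0.12 (adjusted p = 0.023), a call that ended without APC replicate 3 (-0.27), without APC_TRI replicate 1 (-0.36) and with the beta-actin ratio as a covariate (-0.30). IPC minus IPC_TRI was -0.29 ± 0.12 (adjusted p = 0.069), and it passed at -0.74 with the values as deposited (adjusted p = 6.5e-04) and at -0.48 with median centring (adjusted p = 0.038). U07181_g_at gave -0.13 ± 0.15 (adjusted p = 0.57) and 0.25 ± 0.15 (adjusted p = 0.23). The genes most like U07181_at over the 30 arrays were Acsl1 (Pearson r = 0.848), Cdkn1a (r = 0.843) and Ndrg4 (r = 0.791). With Slc2a4 they were Mgst3 (r = 0.778), Pxmp2 (r = 0.712) and Gtf3c1 (r = 0.703), and with Pgam2 Micos13 (r = 0.732), Rpl21 (r = 0.723) and Egfl7 (r = 0.694).

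**Figure D4:**
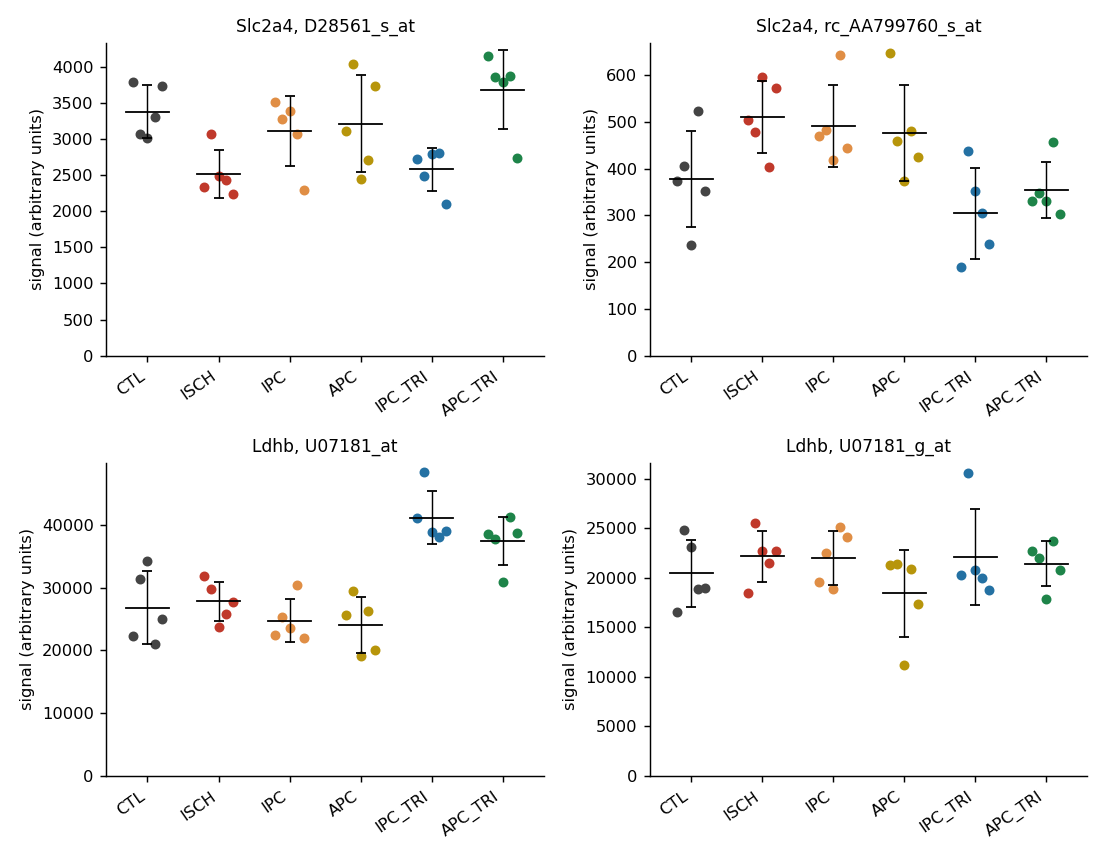
Deposited signal of the 2 probe sets of Slc2a4 (top) and of Ldhb (bottom) on each array in arbitrary units; points are arrays, and lines with bars are group means ± SD of 5 arrays. On U07181_at the IPC_TRI and APC_TRI arrays lie between 30955 and 48418, while on U07181_g_at all groups overlap.

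Gapdh, which oxidises glyceraldehyde 3-phosphate, showed the same kind of split within 1 transcript. The control probe sets read its 5′ part, its middle and its 3′ part. The ratio of the middle to the 5′ signal was 1.20 to 1.85 on the 10 trigger arrays and 0.924 to 1.07 on the 20 others, with no overlap. The ratio of the 3′ to the 5′ signal was 1.03 to 1.34 and 0.845 to 1.16. On the middle probe set the mean deposited signal was 50612 ± 2807 in IPC_TRI, 45122 ± 3533 in APC_TRI and 35411 ± 6600 in CTL (SD, n = 5), and ISCH replicate 1 read 66825 where the other ISCH arrays read 31062 to 39058.

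The direction of the Gapdh difference from CTL depended on the scaling. In ISCH the middle probe set gave -0.39 after quantile normalisation, 0.17 with the values as deposited and 0.07 after median centring; in IPC_TRI it gave -0.02, 0.53 and 0.32. After quantile normalisation, tested with the table, the middle probe set passed in ISCH as lower (adjusted p = 0.010). The 5′ probe set passed in IPC_TRI (-0.42, adjusted p = 0.0065), in APC_TRI (-0.35, adjusted p = 0.032) and in IPC minus IPC_TRI (0.31, adjusted p = 0.027), and the 3′ one in IPC_TRI (-0.26, adjusted p = 0.045). With the values as deposited these 4 differences were 0.01, -0.04, -0.13 and 0.20. Because the scaling turned the sign of most of these values, no direction is stated for Gapdh. The 3 Gapdh control probe sets whose names end in _st were dim beside their counterparts, at 106 to 2046 over all arrays. The 5_st one passed as lower in IPC_TRI minus CTL (-1.10 ± 0.31, adjusted p = 0.016), IPC_TRI minus APC_TRI (-1.58 ± 0.31, adjusted p = 0.012) and APC minus APC_TRI (-1.09 ± 0.31, adjusted p = 0.014), and the M_st one in APC minus APC_TRI (-0.97 ± 0.33, adjusted p = 0.040); 3_st passed in none. The 3′ to 5′ ratio of beta-actin, given above, also set the trigger groups apart in the mean, but it was lower there. That of Gapdh was higher there, with a mean of 1.12 on the 10 trigger arrays and 0.989 on the 20 others. The hexokinase 3′ to 5′ ratio averaged 1.51 in IPC_TRI, 1.22 in APC_TRI and 1.25 in CTL. The IPC_TRI mean rested on replicate 2 at 2.63, as the other IPC_TRI arrays read 1.04 to 1.30. These 3′ to 5′ ratios thus did not share a direction. The middle to 5′ ratio of hexokinase averaged 5.01 in IPC_TRI and 4.58 in APC_TRI, and 2.91 to 3.53 in the other groups. It was higher in both trigger groups, as that of Gapdh was, though single arrays overlapped. The part of RNA quality and labelling in the Ldhb and Gapdh values was not tested.

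**Figure D5:**
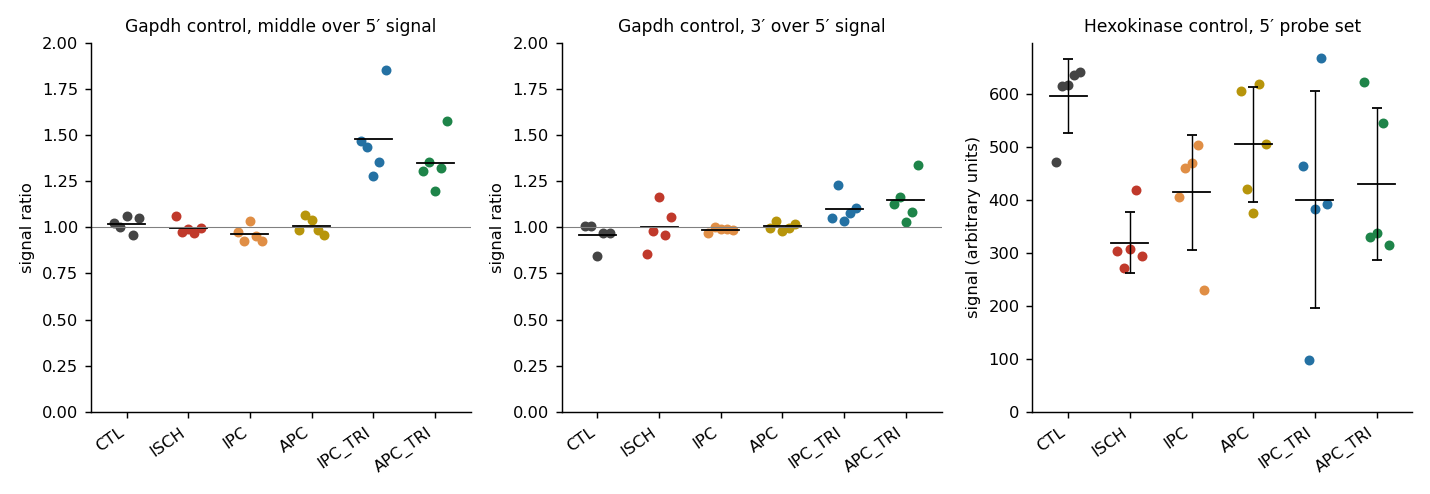
Left and middle, ratio of the middle and of the 3′ to the 5′ signal of the Gapdh control probe sets on each array, with the group mean as a line. Right, deposited signal of the 5′ hexokinase control probe set in arbitrary units with mean ± SD of 5 arrays; the middle to 5′ Gapdh ratio is 1.20 or more on every trigger array and 1.07 or less on every other array.

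Between a full protocol and its trigger, IPC minus IPC_TRI called 3 of 13 member probe sets, 2 higher (Slc2a1 and Slc2a4) and 1 lower (Pfkfb3), where 23.4% of all probe sets passed. APC minus APC_TRI called 4 of 13, 1 higher (Pgam2) and 3 lower (both of Pfkfb3 and 1 of Ldhb), where 17.7% passed. The first share is close to the background. The test of the difference between these steps and ISCH minus CTL called 2 of 13 with IPC, both of Pfkfb3, against 13.6% of all, and limma called 0 of 13 with APC (2 unadjusted) against 8.22%.

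Of 21 further genes of glycolysis 14 were on the array and 10 were tested; in ISCH minus CTL 2 fell and 0 rose, with a median of -0.13, where 8.3% of all genes passed. Pfkm, the muscle phosphofructokinase, read 7788 to 8416 in CTL and 4769.7 to 7243 in ISCH, with no overlap, and fell by 0.51 on the log2 scale (adjusted p = 0.0058). Pfkp, the platelet form, read 394 to 629.7 and 232 to 283 and fell by 0.87 (adjusted p = 0.011). It did not overlap either, and 5.59% of all probe sets lay below CTL in this way. Among 23 alternatives both calls ended only with the spike signal as a covariate, at changes about as large (-0.50 and -0.90). In IPC and APC minus CTL limma called 0 of the 10 (1 and 2 unadjusted), with 3.61% and 3.26% of all genes passing.

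Eno3, the muscle enolase, fell in both trigger groups. Its CTL arrays read 1125, 1225, 836, 763 and 993, its IPC_TRI arrays 309, 671, 509, 562 and 389.5, and its APC_TRI arrays 352, 606, 407, 420.0 and 517, with no overlap. In IPC_TRI and APC_TRI 5.23% and 7.04% of all probe sets lay below CTL without overlap. The change was -1.03 ± 0.21 in IPC_TRI (adjusted p = 0.0014) and -1.04 ± 0.21 in APC_TRI (adjusted p = 0.0020), and it passed under all 23 alternatives in each. Pgk1, phosphoglycerate kinase, fell by 0.51 in IPC_TRI (adjusted p = 0.013) and by 0.52 in APC_TRI (adjusted p = 0.016). In all, 4 of the 10 fell in IPC_TRI (with Pfkm at -0.40 and Pfkp at -0.69) against 15.7% of all genes, and 3 in APC_TRI (with Pfkp at -0.74) against 7.89%; 0 rose in either. Some of these calls ended without 1 array: Pgk1 without CTL replicate 2 in both groups and without APC_TRI replicate 1, and Pfkm in IPC_TRI without CTL replicate 4 or IPC_TRI replicate 2. For Pfkp they ended in 4 of 10 such fits in IPC_TRI, where it was -0.44 without IPC_TRI replicate 5 (adjusted p = 0.13), and in 6 of 10 in APC_TRI. The IPC_TRI calls of Pfkm, Pfkp and Pgk1 also ended in a fit of only these groups and with array weights, and those of Pfkm and Pfkp with the beta-actin ratio as a covariate. The APC_TRI call of Pfkp ended with that covariate and without the filter, and that of Pgk1 with median centring.

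Against their triggers, Eno3 was higher by 1.17 ± 0.21 in IPC (adjusted p = 1.7e-04) and by 1.15 ± 0.21 in APC (adjusted p = 2.1e-04), and Pgk1 by 0.63 ± 0.14 (adjusted p = 0.0016) and 0.55 ± 0.14 (adjusted p = 0.0054). Pkm, pyruvate kinase, was lower in both, by -0.46 ± 0.12 (adjusted p = 0.0048) and -0.52 ± 0.12 (adjusted p = 0.0017). With median centring both Pkm calls ended, at -0.28 (adjusted p = 0.25) and -0.47 (adjusted p = 0.061), and the IPC call also ended with the beta-actin ratio (adjusted p = 0.14). So 2 of 10 rose and 1 fell in each, where 22.9% and 17.2% of all genes passed. The step from trigger to full protocol exceeded ISCH minus CTL for Eno3 by 1.30 ± 0.30 with IPC and 1.28 ± 0.30 with APC, and for Pfkm by 0.78 ± 0.17 and 0.79 ± 0.17 (adjusted p between 0.0039 and 0.0076). A covariate for the spike signal gave differences of 1.24, 1.22, 0.76 and 0.76, and none of them passed.

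Slc16a1, the transporter that carries lactate across the cell membrane, fell in ISCH and IPC_TRI. Its CTL arrays read 4436, 4200.1, 2369.5, 2831 and 3775, its ISCH arrays 1152, 2332, 2089, 2363 and 2158, and its IPC_TRI arrays 2026, 878, 2330.0, 2463 and 1171. All 5 ISCH arrays were below all CTL arrays, as held for 5.59% of all probe sets. The IPC arrays, at 4846, 4421, 3344, 4628 and 2251, and the APC arrays, at 3655, 3518, 3088, 3733 and 3118, overlapped with CTL. The change against CTL was -0.79 ± 0.24 in ISCH (adjusted p = 0.035) and -1.01 ± 0.24 in IPC_TRI (adjusted p = 0.0057). The ISCH call ended in 6 of the 10 fits without 1 array (CTL replicates 1, 2 and 5 and ISCH replicates 1, 3 and 5) and fell to -0.17 with the spike signal as a covariate. IPC minus IPC_TRI was 1.11 ± 0.24 (adjusted p = 0.0015), and that step exceeded ISCH minus CTL by 1.90 ± 0.34 (adjusted p = 6.3e-04). The same difference for APC was 1.35 ± 0.34 (adjusted p = 0.015). A covariate for the spike signal brought them to 1.16 (adjusted p = 0.11) and 0.60 (adjusted p = 0.45). With the beta-actin ratio, the IPC_TRI minus CTL and IPC minus IPC_TRI calls ended at -0.85 (adjusted p = 0.062) and 0.87 (adjusted p = 0.13). Slc16a1 was 1 of 4 tested transport genes to pass in ISCH minus CTL, where 8.3% of all genes passed. Slc2a3, another glucose transporter, was higher by 0.60 ± 0.18 in APC than in APC_TRI (adjusted p = 0.023), where 17.2% passed. That call ended without APC replicate 1 or 2 or APC_TRI replicate 2 or 5 (lowest 0.49).

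Among 7 tested genes of glycogen metabolism limma called 0 in ISCH minus CTL (0 unadjusted), and 2 rose in IPC_TRI: Pgm1, phosphoglucomutase, by 0.74 ± 0.14 (adjusted p = 9.96e-04; 0.42 and not called with median centring) and the kinase gene Gsk3a by 0.39 ± 0.12 (adjusted p = 0.031). Gsk3a also rose in APC_TRI, by 0.40 ± 0.12 (adjusted p = 0.039), but it passed in 9 and 12 of 23 alternatives in these groups, and in 3 of the 10 fits without 1 array in each. With median centring it was 0.07 in IPC_TRI and 0.27 in APC_TRI. Of 4 tested genes of gluconeogenesis and the pentose phosphate path, Taldo1, transaldolase, fell by 0.66 in APC_TRI (adjusted p = 0.014) and was higher by 0.72 ± 0.17 in APC than in its trigger (adjusted p = 0.0035). Beside these counts, 8.3%, 15.7% and 7.89% of all genes passed in ISCH, IPC_TRI and APC_TRI minus CTL. In APC minus APC_TRI 17.2% passed. In IPC minus ISCH and APC minus ISCH limma called 0 of the 10 glycolysis genes (1 unadjusted in each), where 0.0951% and 0.127% of all genes passed.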

How the data were processed

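Each array was deposited as linear intensities, 1 for each probe set. Per the labels' protocols total RNA was processed by the maker's standard procedures; the software was not given in the sources used here. In the values as deposited, the mean without the lowest and highest 2% of probe sets was 500.8 to 501 on every array, so arrays had been scaled to a common mean, and array medians were 114.6 to 189.2. The 8799 probe sets included 59 controls; 7006 others had 1 gene symbol in the platform annotation, and 308 listed several. No 2 arrays were identical (highest correlation 0.977). The number of arrays limits the precision.

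Of the deposited intensities, non-control values were transformed as log2(value + 16) and quantile normalised, and probe sets in the lowest 40% by mean were dropped. limma 3.58.1 (R 4.3.3) was fitted to all 30 arrays with 6 group means and an intensity trend, for 11 comparisons, 2 differences of comparisons and the F test, with Benjamini-Hochberg adjustment within each and a threshold of 0.05. The fit was tested on simulated data. The p-values set each difference between group means against the spread between arrays, estimated over all 6 groups together, although the IPC_TRI arrays were less alike. A gene stood at its brightest probe set. Member probe sets were named, those of the controls as quality measures, with genes of the pathway lists where they passed, and the 3 genes most correlated with each member that passed the F test. The members and lists were chosen with earlier results of these data known. Alternatives were the pseudocount, the filter, the scaling, a fit of only the groups compared, a replicate block and leaving out each array; chosen after seeing the data were array weights, 2 arrays left out together, the spike signal or beta-actin ratio as a covariate, and the control probe sets added. Figures used matplotlib 3.10.9.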

Additional observations from a re-analysis of the deposited data

Results flagged for a closer look

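In 138 groups of 5 arrays (23 member probe sets in 6 protocols) 15 had 1 array set apart from the other 4 by Dixon's criterion, which chance alone marks in about 1 in 20 groups. Among the transporters, Slc2a1 on M13979_at was high in ISCH replicate 3 (72.4), and Slc2a4 on D28561_s_at was low in APC_TRI replicate 5 (2743.9). For hexokinase, the 5′ control probe set was low in CTL replicate 1 (471.9) and IPC replicate 5 (229.0) and high in ISCH replicate 4 (418.4). Hk1 on U27319exon_at was low in APC replicate 3 (610.0), and Hk2 on D26393exon_s_at was low in ISCH replicate 1 (64.2) and high in IPC_TRI replicate 2 (661.7). Pfkfb3 on AB006710_s_at was low in APC_TRI replicate 5 (317.7), the array that was also lowest of its group on D87240_at. Aldoa was low in IPC replicate 5 (7956.0). The Gapdh 3′ and middle control probe sets were both low in APC replicate 5 (24703.3 and 23313.4), and the 5′ one was high in CTL replicate 3 (44109.8) and low in IPC_TRI replicate 5 (29104.2). Ldhb on U07181_g_at was high in IPC_TRI replicate 2 (30648.0).

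For Pfkfb3 the step from the ischemic trigger to the full protocol was smaller than the step from control to ischemia. With limma's interaction term the log2 difference was 2.66 on AB006710_s_at (adjusted p = 0.018) and 1.28 on D87240_at (adjusted p = 0.038). The D87240_at call ended without the filter (adjusted p = 0.057) and with the values as deposited (adjusted p = 0.051). Neither passed with the spike signal as a covariate.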

How the results depend on the processing

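The counts of member probe sets that passed depended on the processing as follows. ISCH minus CTL had 3, 5 with array weights and 2 to 4 without 1 array. IPC_TRI minus CTL had 1; it had 2 with a pseudocount of 64 or 60% of probe sets left out, 3 with the values as deposited or median centring, 0 with only the groups compared or array weights, and 0 to 2 without 1 array. APC_TRI minus CTL had 0, and 1 with the values as deposited. APC minus ISCH had 0, and 1 with array weights. IPC minus IPC_TRI had 3; it had 6 with median centring, 1 with only the groups compared, 0 with the beta-actin ratio as a covariate, and 2 to 5 without 1 array. APC minus APC_TRI had 4, 2 with the beta-actin ratio and 2 to 4 without 1 array. (IPC minus IPC_TRI) minus (ISCH minus CTL) had 2; it had 1 without the filter, 0 with the 2 least similar arrays left out, with array weights or with the spike signal, and 1 to 3 without 1 array. (APC minus APC_TRI) minus (ISCH minus CTL) had 0; it had 1 with the values as deposited, 2 with only the groups compared or array weights, and 0 to 1 without 1 array. The F test had 7; it had 4 with the spike signal, 2 with the beta-actin ratio, and 5 to 8 without 1 array. The causes were not tested. Over the tested member probe sets and the pathway genes that passed, no call turned its direction in any alternative run; the Gapdh control probe sets, whose sign depended on the scaling, are not among them.

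With the replicate number as a block, IPC_TRI minus CTL had 2 member probe sets in place of 1. The numbers did not pair the arrays: over 75 pairs with the same number the correlation of deviations averaged 0.0116, and 9 were over 0.1. The 5 arrays in a group limit the precision of every value.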
